A study of Homo sapiens with 8 samples.

Results

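The response of CCNB1-negative HT29 cells to selumetinib was read from 4 of the 8 libraries of the HT29 series, 2 from untreated and 2 from treated cells, all in the fraction that a flow sorter called negative for cyclin B1. HT29, an established line from a human colorectal cancer, carries an activating BRAF mutation, and selumetinib is an inhibitor of MEK. Cells were left untreated or given 1 μM selumetinib for 24 h, fixed with glyoxal, stained for cyclin B1 (encoded by CCNB1) and sorted, and poly(A)-selected mRNA was sequenced. The 4 CCNB1-positive libraries, again 2 untreated and 2 treated, entered the model to share its estimate of spread and to show where the CCNB1-negative response differed. All 8 libraries came from 1 cell line and 1 time of treatment. The labels number the libraries as replicates without naming separate cultures, so that p-values measure only the spread between these libraries. Genes were included if their mean over the 8 libraries reached 1 RPM, a read number scaled to the size of the library, which held for 14219 of 38148 rows. A log2 value is the log2 of reads scaled to the largest library, so that a difference of 1 is a 2-fold change.

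MEK phosphorylates and activates ERK, which drives transcription of cyclin D1, of ETS and AP-1 factors, and of its own inhibitors such as dual specificity phosphatases and Sprouty proteins. Cells that lose ERK signalling stop in G1, before DNA replication. Cyclin B1 accumulates as cells pass through S phase into G2, so a CCNB1-negative gate holds G1 cells and, in a growing culture, cells in early S phase too. In the normal colon, proliferating crypt cells give rise to absorptive colonocytes, mucus-secreting goblet cells, hormone-secreting enteroendocrine cells and chemosensory tuft cells.

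In all 8 libraries the sample title and the short description disagree on both treatment and fraction, and the groups used here follow the descriptions, which match the column names. Under the titles the contrast would be the CCNB1-positive response with its sign changed. CCNB1 itself had log2 values of 11.66 and 12.01 in the untreated and of 7.92 and 7.22 in the treated CCNB1-negative libraries (log2 fold change -4.27, limma adjusted p = 2.2e-09). In the libraries described as CCNB1-positive it was higher, at 13.79 and 14.05 untreated and 12.76 and 12.53 treated, as the descriptions and not the titles would have it. The ERK phosphatase gene DUSP6 had 11.38 and 11.33 against 9.46 and 9.73 (-1.75, adjusted p = 2.2e-06), and the Sprouty gene SPRY4 had 10.17 and 9.76 against 8.64 and 9.02 (-1.13, adjusted p = 8.8e-04). Both inhibitors of the pathway were lower in treated cells, without overlap of the libraries. Reads on genes numbered 12696860 to 21958824 per CCNB1-negative library, with the treated libraries the shallower, and no molecular identifiers were used. In treated libraries MALAT1 took 2.87% and 4.42% of reads against 0.348% and 0.303%, mitochondrial mRNAs took 14.8% and 12.3% against 7.80% and 4.44%, and ribosomal protein genes took 4.72% and 4.69% against 7.15% and 8.89%. The part of these shifts in the results below was not tested beyond the scaling alternatives given with the limits. Of 12 colorectal epithelial markers all 12 passed the filter on low values, whereas 3 of 16 markers of non-epithelial cells did. These were LYZ, lysozyme, which Paneth and some cancer cells express too, with 20276 and 20668 reads in untreated and 7614 and 4357 in treated libraries, CD68 with 64 to 157 reads and COL1A1 with 6 to 36. The other 13 had at most 18 reads in a library. PTPRC, the pan-leukocyte marker, had at most 11 reads in a CCNB1-negative library and CD3E, a T-cell marker, had 0.

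Selumetinib shifted the larger share of the measured transcriptome in CCNB1-negative cells. At an adjusted p under 0.05 (limma, Benjamini-Hochberg over 14219 genes), 5438 genes were higher, which is 38.2% of the genes tested, and 5092 were lower, which is 35.8%. A change of at least 2-fold was called upwards for 3776 genes (26.6%) and downwards for 2982 (21%). Past 4-fold there were 1529 genes up and 780 down. For 6 of the called genes the untreated and treated libraries overlapped. The median log2 fold change of all genes was 0.05. Of the called genes 51.6% were higher, which became 63.1% when libraries were scaled to nuclear reads without MALAT1. With so much of the transcriptome called, counts for any group of genes below are read against these shares. Genes with untreated means below the filter in both fractions were tested only because treated libraries were high. Such genes had to differ, and their rises are given as sizes and not as support.

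Cell cycle genes were lower in the treated gate. Of 51 S phase genes 50 fell and none rose, with a median log2 fold change of -3.03, and of 55 G2 and M phase genes 53 fell and 2 rose, with a median of -2.90. CDC6, which loads the replicative helicase, had log2 values of 11.64 and 11.81 in untreated and of 7.11 and 7.42 in treated libraries (-4.46, SE 0.16, limma adjusted p = 7.2e-10). In sorted bulk samples fewer cells of a kind and less RNA per cell cannot be told apart. The 2 genes that rose, GAS2L3 at 0.76 and CTCF at 0.39, lost their calls without treated replicate 2 (0.34 and 0.19) and without untreated replicate 2 (0.24 and 0.27). The cell cycle genes changed in the same comparison as the groups of genes described below, and their part in those changes was not tested.

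The length of a gene moved with its response. In all 1086 pairs in which the span of a gene lies within that of another on the same strand, the outer gene held at least as many reads as the inner one in each of the 8 libraries, against 54.7% of 920 pairs on opposite strands. A row therefore appears to hold every read on its strand from the start to the end of the gene, introns and nested genes included. Protein-coding genes in the quintile with the shortest spans had a median log2 fold change of -0.62, with 20.2% higher and 56.0% lower. Those in the quintile with the longest spans, from 99794 bases upwards, had a median of 0.96, with 66.5% higher and 13.0% lower. The same order held in CCNB1-positive cells, from -0.27 to 0.71. For 2411 genes, 17.0% of those tested, another row overlapping on the same strand held at least 50% as many reads as the gene itself, and such overlaps are given with the genes named here that they touch. The part of span in the change of a group of genes was not tested, and for several groups the median is given also after subtraction of the median of each gene's span quintile.

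**Figure D1:**
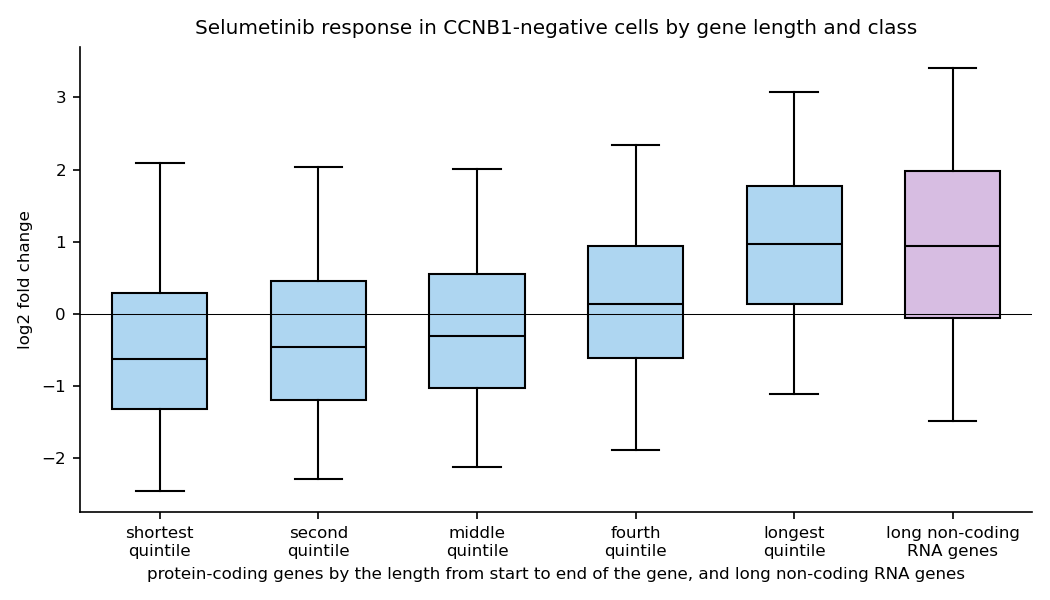
Log2 fold change (selumetinib over untreated, CCNB1-negative cells) of protein-coding genes in quintiles of gene span and of long non-coding RNA genes. Boxes span the quartiles with the median as a line and whiskers run from the 5th to the 95th percentile of genes. The median climbs from -0.62 in the shortest to 0.96 in the longest quintile and is 0.93 for long non-coding RNA genes.

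The ranking leaves out the cell cycle lists and genes named in the study's gene ontology results. The results used were those of clusters (i) and (ii) of COLO205, another colorectal line, and of HT29 gene groups. The study describes cluster (i) as lower under selumetinib whatever the cell cycle stage, so the genes left out are not all cell cycle genes. Among the other named genes with a mean of 7 or more in the higher group, KIAA1324, now ELAPOR1, rose most. It encodes a transmembrane protein of endosomes and lysosomes (ENSG00000116299, chromosome 1, 109113679 to 109206781). Its log2 values were 2.92 and 1.33 in untreated cells, from 7 and 2 reads, and 9.17 and 9.72 in treated cells, from 368 and 496 reads. The log2 fold change was 7.32 (SE 0.51, limma adjusted p = 3.3e-08). CNTD1, a cyclin-like gene of meiotic crossing-over, went from 2.92 and 1.92 to 9.37 and 9.84 (7.18, SE 0.49, adjusted p = 2.9e-08). Both genes were close to undetected in untreated cells, and their rank rests on these few reads: with a pseudocount of 1 RPM the log2 fold changes of KIAA1324 and CNTD1 were 4.64 and 4.76, below the 5.16 of PDZRN3. PDZRN3, a ubiquitin ligase, went from 5.07 and 5.50 to 10.79 and 11.46 (5.84, SE 0.43, adjusted p = 5.5e-08). The pseudocount lowered the other rises too, among them those of METTL7A to 3.75 and MROH7 to 2.98. Without it these were METTL7A (6.38), the sodium-coupled sugar transporter gene SLC5A9 (6.05), YPEL1 (5.64), the ferlin gene FER1L6 (5.62) and the B-cell adaptor gene BLNK (5.59). These genes, like KIAA1324 and CNTD1, had untreated means below the filter in both fractions, so that they had to differ. The read-through row KLRC4-KLRK1 (6.63) shares its reads with KLRK1, and MROH7 (5.82) lies within the row of its own read-through transcript, so that neither can be assigned to 1 gene.

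Under the same limits the largest fall was that of TNS4, which encodes a tensin of focal adhesions, with log2 values of 12.43 and 11.93 in untreated and of 6.82 and 7.12 in treated cells (-5.21, SE 0.32, limma adjusted p = 1.3e-08). CLDN2, the claudin that makes tight junctions permeable to cations, went from 11.45 and 11.33 to 5.82 and 7.08 (-4.94, SE 0.42, adjusted p = 1.7e-07). CEMIP, which takes part in the breakdown of hyaluronan, went from 11.42 and 11.30 to 6.82 and 6.46 (-4.72, SE 0.26, adjusted p = 5.7e-09). In these 3 genes both treated libraries lay far below both untreated ones. DDIAS, a suppressor of apoptosis after DNA damage, fell by 4.64, the proteoglycan gene CSPG4 by 4.56, MALL by 4.20, the TNF receptor gene RELT by 4.17 and SHCBP1, known from cytokinesis, by 3.85 on the log2 scale. CEACAM5, the carcinoembryonic antigen, was at -4.04 and overlaps a row with 130% of its reads. Its relative CEACAM6, at -4.69, and FGF19, at -4.47, fell by more than several of these genes but were among those left out of the ranking. BCYRN1, at -3.99, is a short repeat-derived RNA whose reads cannot be told from related copies. The sizes of falls to few reads depend on those reads. With a pseudocount of 1 RPM TNS4 was at -4.97, DDIAS at -3.58, RELT at -3.34 and BCYRN1 at -2.32. MALL, with 13 and 2 reads in treated libraries, was at -2.35.

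**Figure D2:**
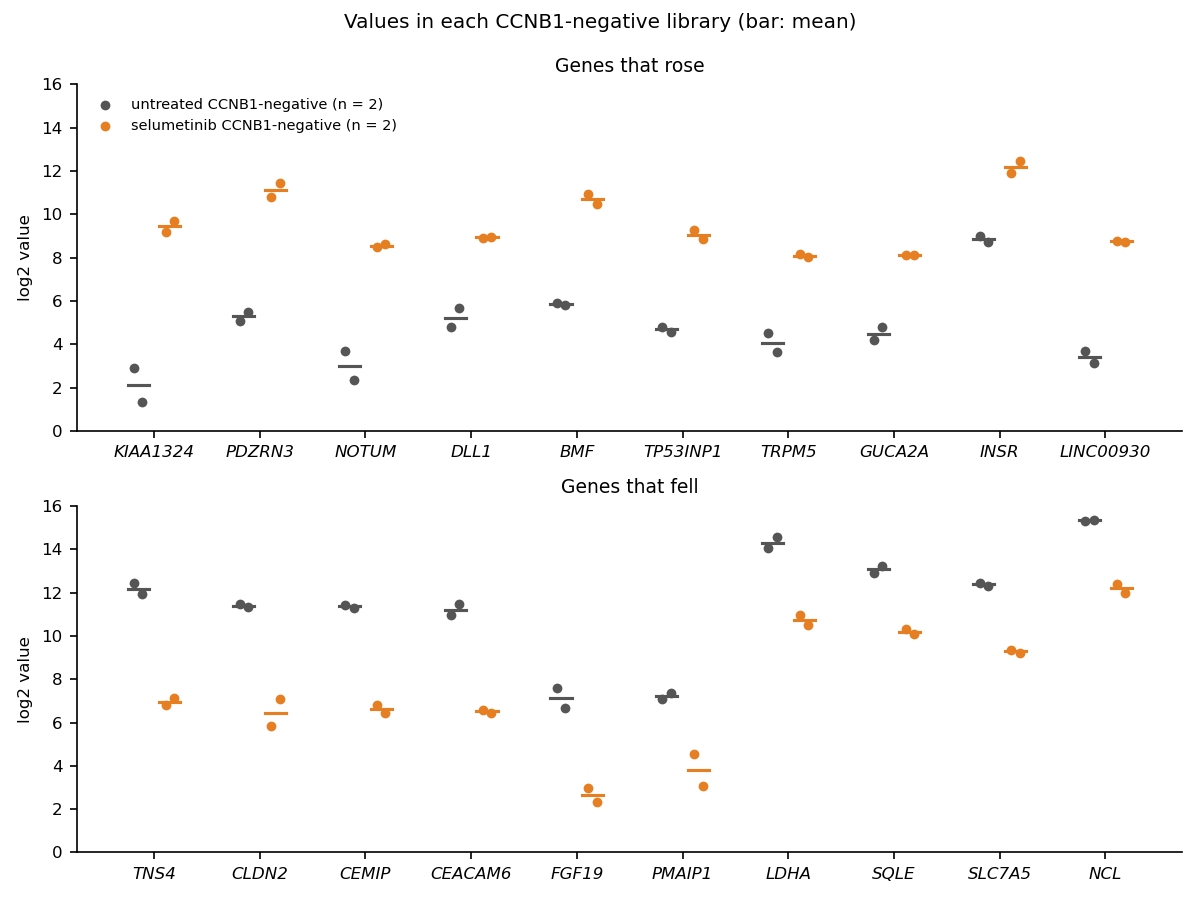
Log2 value of 20 genes in each CCNB1-negative library, with untreated libraries in grey, treated in orange, 2 libraries each, and bars at the group means. In each of the 10 genes that rose (upper panel) and the 10 that fell (lower panel) both treated libraries lie on the same side of both untreated ones, as for BMF, from 5.92 and 5.82 to 10.95 and 10.50.

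The promoters of the 3 genes with the largest rises and the 3 with the largest falls that have an entry in the RefSeq promoter table (GRCh38.p14) are shown, since these genes mark the extremes of the response. Each runs from 250 bases before to 50 bases after the annotated start, 5′ to 3′ on the strand of the gene. Capitals mark any match, on either strand, to AP-1 (TGACTCA), CRE (TGACGTCA), ETS (CCGGAAG), E-box (CACGTG), E2F (TTTCCCGC), CCAAT box (CCAAT) or GC box (GGGGCGGGG), none of which lies within another.
KIAA1324, chr1:109113865-109114164, plus strand: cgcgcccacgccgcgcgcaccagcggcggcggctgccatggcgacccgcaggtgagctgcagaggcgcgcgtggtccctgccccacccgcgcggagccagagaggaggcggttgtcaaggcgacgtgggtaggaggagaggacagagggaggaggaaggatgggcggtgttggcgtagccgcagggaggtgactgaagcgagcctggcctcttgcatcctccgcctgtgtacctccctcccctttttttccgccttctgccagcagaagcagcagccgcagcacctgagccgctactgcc
CNTD1, chr17:42798611-42798910, plus strand: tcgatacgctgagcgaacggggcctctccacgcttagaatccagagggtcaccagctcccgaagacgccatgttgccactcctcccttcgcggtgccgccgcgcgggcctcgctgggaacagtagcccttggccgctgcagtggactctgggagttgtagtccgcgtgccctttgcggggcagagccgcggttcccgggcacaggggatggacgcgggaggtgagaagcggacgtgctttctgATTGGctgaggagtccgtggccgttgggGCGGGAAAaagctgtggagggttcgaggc
PDZRN3, chr3:73624892-73625191, minus strand: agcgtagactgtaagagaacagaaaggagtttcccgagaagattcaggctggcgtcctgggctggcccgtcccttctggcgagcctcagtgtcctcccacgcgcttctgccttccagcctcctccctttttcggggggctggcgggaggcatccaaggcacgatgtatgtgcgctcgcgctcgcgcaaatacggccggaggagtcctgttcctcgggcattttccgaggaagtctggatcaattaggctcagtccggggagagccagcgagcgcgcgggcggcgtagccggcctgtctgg
CLDN2, chrX:106899914-106900213, plus strand: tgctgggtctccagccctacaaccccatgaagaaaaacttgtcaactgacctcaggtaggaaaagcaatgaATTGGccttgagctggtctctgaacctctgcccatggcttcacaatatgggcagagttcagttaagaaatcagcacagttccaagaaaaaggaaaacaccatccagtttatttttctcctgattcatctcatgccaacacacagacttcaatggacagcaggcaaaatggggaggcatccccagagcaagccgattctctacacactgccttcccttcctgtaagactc
CEMIP, chr15:80779120-80779419, plus strand: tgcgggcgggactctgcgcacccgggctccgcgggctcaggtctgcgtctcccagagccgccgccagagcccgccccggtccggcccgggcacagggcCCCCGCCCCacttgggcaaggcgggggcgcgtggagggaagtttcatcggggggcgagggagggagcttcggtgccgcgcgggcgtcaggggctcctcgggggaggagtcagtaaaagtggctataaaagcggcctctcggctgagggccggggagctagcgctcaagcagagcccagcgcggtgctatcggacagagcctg
DDIAS, chr11:82901486-82901785, plus strand: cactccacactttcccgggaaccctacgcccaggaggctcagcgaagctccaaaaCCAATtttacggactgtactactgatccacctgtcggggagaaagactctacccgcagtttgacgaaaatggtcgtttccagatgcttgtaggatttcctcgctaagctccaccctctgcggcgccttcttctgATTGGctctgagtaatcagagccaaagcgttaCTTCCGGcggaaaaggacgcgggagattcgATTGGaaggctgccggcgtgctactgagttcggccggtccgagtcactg
Of the rising genes, CNTD1 has an E2F and a CCAAT match and the other 2 have none of the 7 motifs. Of the falling genes, CLDN2 has a CCAAT, CEMIP a GC box, and DDIAS both an ETS and a CCAAT match. Over the 10396 tested genes with a promoter sequence, the ETS letters were in 19.9% of promoters, in 12.9% of those of genes higher at least 2-fold and in 23.8% of those of genes lower at least 2-fold. Outside the genes left out of the ranking 24.3% of the lower genes had them. The E2F letters were in 2.71%, 1.74% and 3.92%, the E-box in 10.2%, 8.80% and 11.7%, the CRE in 3.16%, 2.37% and 3.62%, and CCAAT in 37.3%, 35.8% and 41.0% of the same classes. AP-1 letters were in 3.04%, 2.92% and 3.10%, and the GC box in 27.1%, 24.9% and 27.2%. In genes not past 2-fold the ETS letters were in 21.4% of promoters, and in genes lower at least 4-fold in 20.9%. The deepest falls thus did not carry ETS letters more often than genes not past 2-fold. For E2F the shares in these 2 classes were 2.66% and 5.03%. Among all 27305 promoters in the table the shares were 10.7% for ETS, 1.66% for E2F, 7.43% for the E-box, 1.98% for CRE, 35.7% for CCAAT, 4.92% for AP-1 and 16% for the GC box. These are shares of letters in a window and not of bound sites.

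The feedback genes of the ERK pathway fell as a group. Of the 15 tested, 12 were lower and 3 higher. The median was -1.42, against -1.11 in the CCNB1-positive fraction. DUSP7, a phosphatase of ERK, went from log2 values of 8.69 and 8.56 to 6.58 and 5.46 (-2.61, SE 0.30, limma adjusted p = 2.7e-06). EPHA2, an ephrin receptor gene induced by ERK, went from 11.89 and 11.65 to 9.86 and 9.72 (-1.98, SE 0.15, adjusted p = 6.2e-08). Not all members fell, as EPHA4 went up from 3.70 and 3.65 to 7.50 and 8.07 (4.11, SE 0.40, adjusted p = 6.7e-07). EPHA4 had untreated means below the filter in both fractions, passed through the treated libraries and had to differ. SPRED2, an inhibitor of RAS to RAF signalling, was at 0.72 (adjusted p = 0.0058), but its call was lost without treated replicate 2 (0.39, adjusted p = 0.091). DUSP4, DUSP5, SPRY2 and SPRED1 lay at -1.13, -1.54, -1.14 and -1.42 and all passed the test.

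The ETS and AP-1 factors and immediate early genes did not move together, with 12 of 25 higher, 7 lower and a median of 0.30. The PEA3 factors, ETS proteins that ERK both induces and activates, were the deepest falls: ETV4 went from log2 values of 10.76 and 10.73 to 7.85 and 7.43 (-3.10, SE 0.31, limma adjusted p = 8.1e-07), and ETV5 had 9.53 in both untreated libraries and 6.26 and 6.89 in treated ones (-2.95, SE 0.30, adjusted p = 8.8e-07). MYC fell by 2.27 and FOSL1 by 1.06 on the log2 scale. Several classical immediate early genes went the other way. NR4A1 went from 7.82 and 7.58 to 10.10 and 9.40 (2.05, adjusted p = 4.4e-06), ATF3 from 8.37 and 8.07 to 10.42 and 10.03 (2.0, adjusted p = 4.7e-06), and EGR1, EGR2 and FOSB rose by 1.17, 2.08 and 1.95.

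Among the kinases and adaptors from RAS to ERK, 11 of 23 rose and 7 fell, with a median of 0.31. The RAS activators SOS2 (7.58 and 7.40 to 10.28 and 10.68) and SOS1 (10.10 and 9.78 to 12.13 and 12.61) had log2 fold changes of 2.99 and 2.44 (limma adjusted p = 1.4e-08 and 4.9e-08). BRAF rose by 2.14 and the RAS inactivator NF1 by 1.48, whereas NRAS fell by 1.54 and HRAS by 1.29. The kinases that selumetinib targets, encoded by MAP2K1 and MAP2K2, lay at -0.20 and -0.15 and were not called. The genes that rose here are long ones, and after subtraction of the span quintile the median of the list was 0.16.

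Receptor tyrosine kinase genes were higher in 8 and lower in 5 of 17 tested, with a median of 0.37. These are 47.1% and 29.4%, against 38.2% and 35.8% of all genes tested. The insulin receptor gene INSR went from log2 values of 9.01 and 8.74 to 11.93 and 12.46 (3.32, SE 0.18, limma adjusted p = 5.3e-09), and FGFR2 from 9.77 and 9.70 to 12.11 and 12.30 (2.47, SE 0.14, adjusted p = 8.1e-09). ERBB3 rose by 1.31, IGF1R by 1.43 and ERBB2 by 0.85. MET and MST1R, the receptors for HGF and its relative, were at -1.03 and -1.10 and both were called, whereas EGFR was at -0.11 and was not. Of 12 growth factor genes 5 rose and 3 fell. FGF19, an endocrine FGF of the intestine, went from 7.58 and 6.69 to 2.97 and 2.35 (-4.47, SE 0.52, adjusted p = 3.5e-06). Its treated values rest on 5 and 3 reads, and with a pseudocount of 1 RPM it was at -2.44. The EGF family ligand gene BTC rose by 1.37 and GDF15 by 1.30. BTC lost its call under quantile normalization (0.56, adjusted p = 0.11). HBEGF, at -0.83, lost its call in 4 of the alternatives, with -0.54 without treated replicate 2 and -0.63 without untreated replicate 1.

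Secreted regulators of Wnt signalling moved in opposite directions. NOTUM, an extracellular enzyme that inactivates Wnt ligands, went from log2 values of 3.70 and 2.33 to 8.49 and 8.61 (5.53, SE 0.45, limma adjusted p = 1.3e-07). Its untreated means lay below the filter in both fractions, so that it passed through the treated libraries and had to differ. With a pseudocount of 1 RPM it was at 3.61. DKK1, which blocks the Wnt co-receptor, went from 11.76 and 11.84 to 9.36 and 8.87 (-2.69, SE 0.17, adjusted p = 1.8e-08). The feedback genes AXIN2, RNF43 and ZNRF3 rose by 0.94, 1.11 and 1.18, and the stem cell genes LGR5 and SOX9 fell by 1.21 and 0.88. In all, 5 of 15 Wnt genes were higher (33.3%) and 6 lower (40%), close to the 38.2% and 35.8% of all genes tested. The sign of their median (-0.15) changed with the scaling. Of 15 TGF-β and BMP genes 1 was higher, TGFBR2 at 0.63, and 5 were lower, among them BMP4 at -1.12.

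In the Notch list 6 of 12 genes rose and 2 fell, with a median of 0.84. The ligand gene DLL1 went from log2 values of 4.82 and 5.65 to 8.91 and 8.96 (3.70, SE 0.30, limma adjusted p = 1.3e-07), and HES6, a bHLH factor that antagonises HES1, from 9.69 and 9.87 to 12.99 and 12.82 (3.13, SE 0.16, adjusted p = 3.0e-09). DLL4 rose by 2.88 and HES1 by 1.11, while the ligand gene JAG1 fell by 1.44. ATOH1, the secretory lineage factor that Notch represses, was at 0.71 and was not called. YAP and TEAD targets were higher in 7 and lower in 2 of 13, with PTPN14 at 1.45 and CCN1 at 1.21, and TEAD4 at -1.33.

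Cell death genes of the BCL2 family were mostly lower, with 8 of 13 lower and 2 higher. The median was -0.76, or -0.30 after subtraction of the span quintile. The pair that rose did so by far more than most of the others fell. BMF, a pro-apoptotic BH3-only protein, went from log2 values of 5.92 and 5.82 to 10.95 and 10.50 (4.85, SE 0.37, limma adjusted p = 8.3e-08), and BIK, a member of the same class, from 4.92 and 5.14 to 7.44 and 7.41 (2.39, adjusted p = 4.9e-06). PMAIP1, the BH3-only protein NOXA, went from 7.08 and 7.38 to 4.56 and 3.08 (-3.41, SE 0.44, adjusted p = 9.9e-06). Its treated values rest on 15 and 5 reads, and with a pseudocount of 1 RPM it was at -2.15. The effectors BAX and BAK1 fell by 1.15 and 1.41 and the survival gene MCL1 by 0.81. BCL2L11, which encodes BIM, was at -0.51 and BBC3 at 0.51, of which the first alone was called, and it lost its call in at least 1 alternative (highest adjusted p = 0.37).

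Inflammatory lists were mixed. Of 21 interferon-stimulated genes 9 rose and 4 fell, with a median of 0.70 that was -0.02 under quantile normalization and -0.03 with the stricter filter. IFI6 (5.36 and 4.79 to 7.42 and 6.69) and ISG20 (6.59 and 6.40 to 8.26 and 8.35) had log2 fold changes of 1.98 and 1.81, whereas OAS3 was at -1.41. Of 11 MHC class I genes 5 fell and 3 rose, or 45.5% and 27.3%, against 35.8% and 38.2% of all genes tested. B2M, the light chain, was at -1.21 and TAPBP at 0.97, and 4 of the 11 overlap other rows. In the NF-κB list 6 of 14 were higher, TNFAIP3 at 1.80 and CCL28 at 1.46 among them, and CXCL1 was the single tested gene lower, at -1.89. Of 4 members below the filter, CXCL8, a neutrophil chemokine, had 78 and 46 reads in untreated and 1 and 7 in treated libraries, and CCL20 had 11 and 19 against 0 and 5. CCL28 lost its call under quantile normalization (0.70, limma adjusted p = 0.074), and TNFAIP3 in at least 1 alternative (highest adjusted p = 0.079).

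Glycolysis genes fell almost without exception. Of 23 tested 21 were lower and 1 higher, with a median of -1.73, or -1.62 after subtraction of the span quintile. LDHA, which makes lactate, went from log2 values of 14.06 and 14.55 to 10.95 and 10.52 (-3.57, SE 0.21, limma adjusted p = 7.6e-09). HK2, the hexokinase of many tumours, went from 10.35 and 10.28 to 7.01 and 7.27 (-3.17, SE 0.22, adjusted p = 2.8e-08). ENO1, the glucose transporter gene SLC2A1 and the lactate transporter gene SLC16A1 fell by 3.09, 2.78 and 2.37, and GAPDH fell by 1.73. The exception was PFKFB4, a regulatory kinase of fructose 2,6-bisphosphate, which went from 4.82 and 5.03 to 8.11 and 8.46 (3.36, SE 0.30, adjusted p = 2.8e-07).

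Tricarboxylic acid cycle genes were lower in 15 and higher in 1 of 21, with a median of -0.93. FH fell from 11.67 and 11.96 to 9.87 and 9.44 (-2.17, limma adjusted p = 1.0e-07) and IDH3A by 2.02, whereas OGDH rose by 0.78. The mRNAs encoded in mitochondrial DNA went the other way, with 9 of 13 higher, none lower and a median of 0.95. For MT-CO1 the log2 values were 17.86 and 17.17 against 19.05 and 18.80 (1.41, adjusted p = 0.0057), but the fold change was 0.04 under quantile normalization, and that of MT-CO2, 1.11 as deposited, was -0.27. Without untreated replicate 2 both lost their calls (1.06 and 0.90, limma adjusted p = 0.059 and 0.098).

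Sterol synthesis fell in CCNB1-negative cells and much less in CCNB1-positive cells. Of 24 genes of cholesterol synthesis and uptake 20 were lower and 2 higher, with a median of -1.34 against -0.15 in CCNB1-positive cells, and the response was less negative in CCNB1-positive cells for 13 of the 24 by the interaction term. Among all genes 4.99% had a positive interaction, 709 in all, and 0.345% a negative one, 49 in all. SQLE, the monooxygenase that opens the sterol branch, went from log2 values of 12.92 and 13.24 to 10.32 and 10.09 (-2.88, SE 0.17, limma adjusted p = 9.1e-09) against -1.26 in CCNB1-positive cells (interaction 1.61, adjusted p = 6.8e-04). In SQLE the treated and untreated CCNB1-negative libraries did not overlap. SREBF2, which encodes the factor that drives these genes, was at 0.54. TM7SF2 was at 1.90, but its row overlaps VPS51, with 378% of its reads.

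Fatty acid synthesis genes were lower in 8 and higher in 2 of 12, with a median of -1.34. SCD, the stearoyl-CoA desaturase, went from log2 values of 12.37 and 12.47 to 9.62 and 9.72 (-2.75, SE 0.14, limma adjusted p = 2.7e-09), and FASN fell by 1.74. The acetyl-CoA synthetase gene ACSS2 went from 7.90 and 7.50 to 10.21 and 10.14 (2.47, adjusted p = 9.2e-08) and ACACB, the carboxylase that limits fatty acid entry into mitochondria, from 4.92 and 5.19 to 7.82 and 7.76 (2.73, adjusted p = 1.5e-06). The row of FADS2, at -3.73, cannot be read, because the replication gene FEN1 lies within it and held 98.8% as many reads. Of 15 genes of fatty acid oxidation and ketogenesis 6 rose and 3 fell. PDK4, which holds back pyruvate oxidation, went from 5.51 and 5.09 to 8.08 and 7.50 (2.50, adjusted p = 1.1e-05), and PPARA, a lipid-sensing receptor gene, rose by 1.56. PLIN2 was at -0.77 and lost its call under 3 of the alternatives, with -0.64 without untreated replicate 2.

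Genes of serine and one-carbon metabolism and of the amino acid stress response were lower in 19 and higher in 3 of 24, with a median of -1.84 against -1.01 in CCNB1-positive cells, and 12 of the 24 had a positive interaction. SLC7A5, the carrier of large neutral amino acids, went from log2 values of 12.46 and 12.30 to 9.37 and 9.19 (-3.10, SE 0.14, limma adjusted p = 1.5e-09), and SLC7A11, the cystine carrier, from 11.95 and 11.92 to 9.13 and 8.96 (-2.89, SE 0.14, adjusted p = 1.8e-09). PHGDH, PSAT1, MTHFD2 and ASNS fell by 2.59, 2.64, 2.86 and 2.29. The stress genes DDIT3 and NUPR1 rose by 1.17 and 1.74, NUPR1 from 5.64 and 5.95 to 7.47 and 7.59, while ATF4, the factor over this programme, fell by 0.99.

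All 28 ribosome biogenesis genes fell, with a median of -1.79 against -1.56 in CCNB1-positive cells. NCL, which encodes nucleolin, went from log2 values of 15.33 and 15.34 to 12.41 and 11.99 (-3.13, SE 0.19, limma adjusted p = 8.7e-09), and NOLC1 from 13.01 and 13.13 to 10.25 and 10.26 (-2.82, SE 0.14, adjusted p = 2.6e-09). NPM1 fell by 2.64 and FBL by 2.17. Of 80 cytosolic ribosomal protein genes 76 fell and none rose, with a median of -1.0, which was -0.42 after subtraction of the span quintile, since these genes are short. For 80 mitochondrial ribosomal protein genes the counts were 77 and 0, with a median of -1.33. The 8 subunits of the CCT chaperonin, which folds actin and tubulin, all fell, between -2.74 and -2.09, and 35 of 40 proteasome subunits fell, with a median of -1.63. These families were picked by symbol after the values were seen.

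NRF2 and glutathione genes were lower in 17 and higher in 0 of 20, with a median of -1.18. AKR1B10, a carbonyl reductase, went from log2 values of 13.61 and 13.83 to 10.38 and 10.05 (-3.51, SE 0.18, limma adjusted p = 3.0e-09). SRXN1 was at -2.91 and shares its span with a row that held 100% of its reads, and TXN and NQO1 fell by 2.26 and 1.80. NFE2L2, the gene of NRF2 itself, was at -0.08 and was not called. Autophagy genes were higher in 11 and lower in 4 of 25, with a median of 0.37. TP53INP2 went from 4.51 and 4.50 to 9.34 and 8.61 (4.47, SE 0.37, adjusted p = 1.5e-07). Its untreated means lay below the filter in both fractions, so that it had to differ. TP53INP1 rose by 4.36 (SE 0.34, adjusted p = 8.4e-08), and by 7.10 in CCNB1-positive cells, where its untreated values lay near the floor. Both encode scaffold proteins of autophagosome formation, and the initiating kinase gene ULK1 rose by 2.74, while ATG3 fell by 1.61. Lysosomal genes were lower in 13 and higher in 3 of 30. CTSS and GAA rose by 2.80 and 2.45 and GLA fell by 2.81. The median of -0.30 was 0.015 when scaled to nuclear reads. Of 3 metallothionein genes MT1E, at -1.16, and MT2A, at -0.96, were lower, and MT2A lost its call without treated replicate 1 (-0.73) and without untreated replicate 2 (-0.62).

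**Figure D3:**
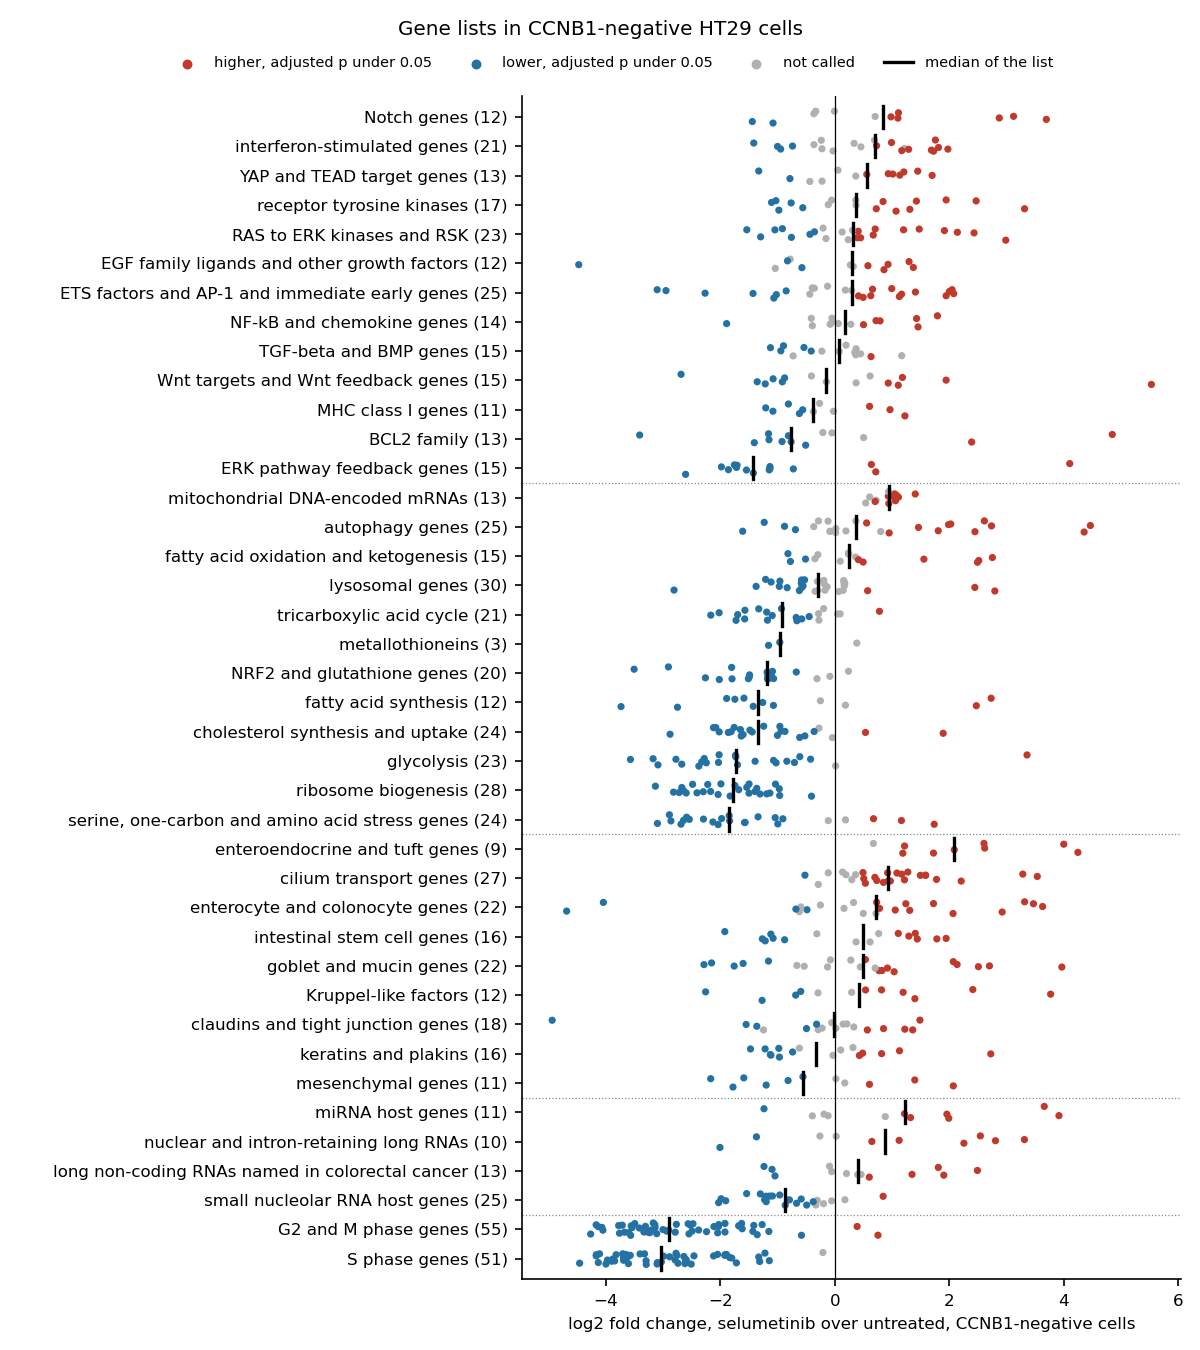
Log2 fold change (selumetinib over untreated, CCNB1-negative cells) of each tested member of 40 gene lists, with the number tested in brackets and the median as a black bar. Red points are higher and blue points lower at an adjusted p under 0.05 (limma), and grey points were not called. Ribosome biogenesis (all 28 blue) and glycolysis (21 of 23 blue) lie to the left, and cilium transport genes (20 of 27 red) to the right.

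Differentiation genes were mixed. Of 39 enterocyte and colonocyte genes 22 passed the filter, and of these 11 were higher and 4 lower. Genes high in 1 group only pass the filter more easily when they differ. GUCA2A and BEST4 had untreated means below the filter in both fractions, passed through the treated libraries and had to differ. The counts therefore say nothing of the list as a whole. GUCA2A, which encodes guanylin, went from log2 values of 4.20 and 4.79 to 8.14 and 8.12 (3.63, SE 0.35, limma adjusted p = 6.2e-07) and BEST4, a channel of a colonocyte subset, from 4.02 and 3.14 to 6.99 and 7.12 (3.47, SE 0.44, adjusted p = 7.4e-06). The brush border cadherin gene CDHR5 rose by 3.32, MYO7B by 2.93, the transcription factor genes HNF4G, HNF4A and CDX2 by 2.07, 1.24 and 1.06, and villin, VIL1, by 0.73, of which CDX2 lost its call in at least 1 alternative (highest limma adjusted p = 0.74). CEACAM6 went from 10.96 and 11.46 to 6.58 and 6.46 (-4.69, SE 0.22, adjusted p = 1.5e-09). Members below the filter were mixed. FABP2 and AQP8 had 0 reads in all 4 libraries, CA1 at most 1 and SLC26A3 at most 3. The sucrase gene SI had 0 and 1 reads in untreated and 55 and 24 in treated libraries. GUCA2B had 0 and 3 against 25 and 36, and CDHR2 9 and 3 against 17 and 24. CEACAM7 went the other way, with 21 in both untreated libraries against 1 and 3.

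Goblet cell genes split by gene. Of 22 tested, out of 28, 10 rose and 5 fell. TFF3, the trefoil peptide of goblet cells, went from log2 values of 8.28 and 8.70 to 11.32 and 11.08 (2.70, SE 0.18, limma adjusted p = 1.8e-08), and FCGBP rose by 2.14. MUC2, the gel-forming mucin of the colon, fell by 1.76, and REG4 went from 13.17 and 13.41 to 11.15 and 11.13 (-2.15, adjusted p = 4.2e-07). TFF1 was at -2.28. MUC20 was at 2.51 and overlaps a row with 150% of its reads.

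Of 23 enteroendocrine and tuft cell genes 9 passed the filter, which was set on the mean of all 8 libraries. Members low in untreated cells, such as AVIL and TRPM5, passed through the treated libraries and had to differ, so that the 8 of 9 that rose say nothing of the list as a whole. TRPM5, the cation channel of tuft cells, went from log2 values of 4.51 and 3.65 to 8.15 and 8.02 (4.00, SE 0.48, limma adjusted p = 4.1e-06) and AVIL, which encodes advillin, from 4.29 and 3.65 to 8.43 and 8.01 (4.25, SE 0.44, adjusted p = 1.1e-06). POU2F3, the tuft lineage factor, rose by 2.61 and NEUROG3, the enteroendocrine lineage factor, by 2.62. Most members below the filter had few reads: GCG and SST had 0 in all 4 libraries, CHGA at most 1, the hormone gene PYY 6 and 4 in untreated and 7 and 4 in treated libraries, and the tuft marker DCLK1 at most 8. PAX4, an enteroendocrine factor, had 26 and 16 reads in untreated and 85 and 96 in treated libraries. Of 16 intestinal stem cell genes 6 were higher and 6 lower, or 37.5% each, close to the 38.2% and 35.8% of all genes tested. PROM1, LGR4 and MSI2 were at 1.44, 1.41 and 1.78, and CDCA7 at -1.92 and CD24 at -1.26.

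Among Krüppel-like factors, KLF8 went from log2 values of 3.82 and 3.33 to 7.51 and 7.19 (3.77, SE 0.39, limma adjusted p = 1.2e-06). KLF8 had untreated means below the filter in both fractions and had to differ. KLF2 rose by 2.41, whereas KLF16 fell by 2.26, and KLF4, a factor of differentiated colon epithelium, was at 0.30 and was not called. In all 6 of 12 were higher and 4 lower. Keratins and plakins were higher in 5 and lower in 7 of 16, or 31% and 44%, against 38.2% and 35.8% of all genes tested. KRT17 went from 8.09 and 7.55 to 11.24 and 9.86 (2.73, adjusted p = 6.6e-05), while KRT8 and KRT18, the main keratins of simple epithelium, fell by 1.22 and 1.11 and EPCAM by 1.34. Of 18 claudin and tight junction genes 5 rose and 5 fell, or 27.8% each, below both of these shares. OCLN was at 1.36 and TJP3 at 1.49, beside the fall of CLDN2. Of 11 mesenchymal and invasion genes 6 fell, PLAUR at -1.78 and MMP7 at -1.59 among them, and 3 rose.

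Genes of ciliary transport mostly rose. Of 27 tested 20 were higher and 1 lower, with a median of 0.93, or 0.82 after subtraction of the span quintile. DYNC2H1, the motor chain of retrograde transport in cilia, went from log2 values of 6.69 and 6.40 to 9.92 and 10.25 (3.54, SE 0.20, limma adjusted p = 6.8e-09), and BBS9 from 6.33 and 6.14 to 9.24 and 9.80 (3.29, SE 0.23, adjusted p = 3.5e-08). IFT140, IFT81 and IFT172 rose by 2.21, 1.78 and 1.58. BBS7 was at -0.52 and lost its call in 4 alternatives, with -0.44 without treated replicate 2 and -0.38 without untreated replicate 2. Whether the cells carried cilia was not measured.

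Long non-coding RNAs were mostly higher. Of 1863 tested 1016 rose and 253 fell, with a median of 0.93, against 4346 higher and 4810 lower of 12191 protein-coding genes, with a median of -0.08. Low levels moved with this result, since genes in the lowest quintile of mean level had a median of 1.06 and those in the highest quintile of -0.58. At a mean of 7 or more, 412 of 722 long non-coding RNAs rose and 151 fell, with a median of 0.78, against -0.19 for protein-coding genes. Many of these RNAs overlap other genes, and without those that another row overlapped by at least 50% of reads the median was 1.02, over the 1350 that remained.

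Among named long non-coding RNAs with a mean of 7 or more in the higher group, the largest rise was that of LINC00930, from log2 values of 3.70 and 3.14 to 8.77 and 8.74 (5.34, SE 0.54, limma adjusted p = 8.8e-07). RAP2C-AS1, NR2F2-AS1 and FSIP2-AS1 rose by 4.36, 4.35 and 4.25. LINC00930, RAP2C-AS1 and NR2F2-AS1 had untreated means below the filter in both fractions and had to differ. The falls were smaller. DLGAP1-AS2 went from 9.82 and 9.78 to 7.77 and 7.64 (-2.09, adjusted p = 1.5e-07). TYMSOS (-2.99) and TMPO-AS1 (-2.90) lie opposite the cell cycle genes TYMS and TMPO, which fell by 3.71 and 1.63, and had 176 and 156 reads in untreated replicate 1 against 4829 and 4204 on the other strand. LINC01226 (-2.23) and LINC00941 (-2.08) overlap rows with more reads than their own, TINAGL1 in the case of LINC01226.

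The snoRNA host genes ran against the other long non-coding RNAs, with 19 of 25 lower and 1 higher and a median of -0.86. SNHG15 went from log2 values of 10.98 and 11.08 to 9.02 and 8.99 (-2.03, SE 0.18, limma adjusted p = 3.1e-07) and SNHG1 from 12.64 and 12.76 to 10.68 and 10.75 (-1.99, SE 0.16, adjusted p = 1.2e-07). These genes carry the guide RNAs of ribosomal RNA modification in their introns. MALAT1, a nuclear RNA of speckles, went from 16.34 and 16.16 to 19.26 and 19.86 (3.32, SE 0.37, adjusted p = 2.6e-06), and KCNQ1OT1 and NEAT1 rose by 2.81 and 2.26. NORAD, a cytoplasmic RNA that binds Pumilio proteins, fell by 1.37. Of 11 miRNA host genes 6 rose and 1 fell. MIR210HG, host of a miRNA known from hypoxia, went from 3.29 and 3.33 to 7.39 and 7.07 (3.92, SE 0.39, adjusted p = 7.5e-07), and MIR3936HG from 6.84 and 6.24 to 10.08 and 10.33 (3.66, adjusted p = 2.4e-08). Of these, MIR210HG had untreated means below the filter in both fractions and had to differ. PCAT1 rose by 2.49 and LINC01133 by 1.91, while ELFN1-AS1 fell by 1.10.

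The plot of list medians sets both fractions side by side, each against its own untreated libraries. The interaction called 758 genes, of which 709 (93.5%) were less negative or more positive in CCNB1-positive cells, and under quantile normalization 70.9% of 1062 were. The count was 3850 when the libraries of both fractions that share a treatment and a number were fitted as a block, and it was 1806 without treated replicate 1 and 489 without untreated replicate 2. Of the S phase genes 44 of 51 and of the G2 and M phase genes 50 of 55 had a positive interaction. Outside the cell cycle lists, cholesterol genes with 13 of 24 and amino acid genes with 12 of 24 stood furthest above the 4.99% of all genes. Among the other lists above that share, NRF2 genes had 4 of 20, fatty acid synthesis 2 of 12, lysosomal genes 3 of 30 and glycolysis 2 of 23. ERK feedback genes had 0 of 15 and ribosome biogenesis 0 of 28. Libraries of both fractions with the same treatment and number deviated together (correlation across genes 0.43 in treated and 0.35 in untreated cells). With the block, 19.3% of all genes had a positive and 7.81% a negative interaction. Cholesterol and amino acid genes then had a positive one in 21 of 24 each, NRF2 genes in 16 of 20, glycolysis in 16 of 23, ribosome biogenesis in 8 of 28 and ERK feedback genes in 3 of 15, so that the low counts without the block do not show an equal response. Outside the genes left out of the ranking above, the largest positive interactions were those of DDIAS (3.51), SHCBP1 (3.38), PMAIP1 (3.30), DEPDC1 (3.26) and TYMSOS (3.22). Of these, SHCBP1 and DEPDC1 are themselves known from dividing cells and TYMSOS lies opposite the S phase gene TYMS. PMAIP1 was at -0.11 in CCNB1-positive cells, against -3.41 in CCNB1-negative cells. The largest negative ones were those of CALN1 (-2.59), ZNF573 (-2.43), PNPLA7 (-1.67), MPP7 (-1.57) and PCDHGB7 (-1.43), all of which rose more in CCNB1-negative cells. PCDHGB7 shares its reads with the other genes of the γ protocadherin cluster, whose outermost row, PCDHGA1, rose by 3.07 in CCNB1-negative and by 1.87 in CCNB1-positive cells.

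**Figure D4:**
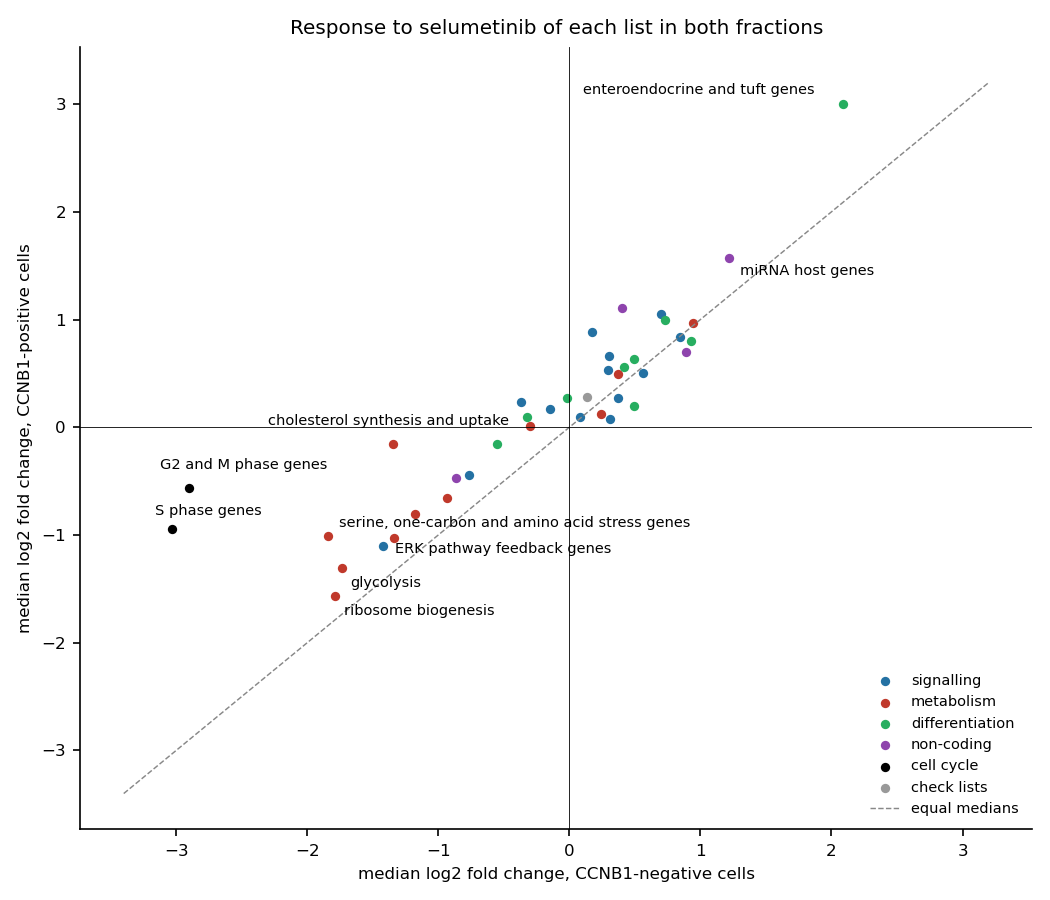
Median log2 fold change under selumetinib of each gene list with at least 9 genes tested, in CCNB1-negative cells (horizontal) and CCNB1-positive cells (vertical), coloured by theme, with a dashed line where both are equal. The cell cycle lists (-3.03 and -2.90 against -0.95 and -0.56) and the cholesterol list (-1.34 against -0.15) lie above the line, and ribosome biogenesis (-1.79 against -1.56) lies close to it.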

How the data were processed

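Poly(A)-selected mRNA of HT29 cells sorted by cyclin B1 was sequenced from directional libraries. Per the labels and methods, reads were trimmed (Trim Galore 0.5.0), aligned to GRCh38 (HISAT2 2.1.0) and quantified per gene in SeqMonk 1.47.0. The values deposited by the authors are log2 values per gene, scaled to the total reads of the largest library. The annotation release is not given in the sources used here. All 8 value columns were used. The deposited log2 values stepped in whole reads, and a gene without reads stood at the log2 of 0.9 reads.

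Genes whose log2 values averaged 4.58 or more over 8 libraries, the log2 value of 1 RPM, were fitted in limma 3.58.1 (R 4.3.3, trended variance). The model had 1 coefficient per group, and p-values were adjusted by Benjamini-Hochberg. The script was tested on simulated data. The planned count test was not run, because the file holds log2 values. A gene name was repeated in 142 rows. Biotypes came from GENCODE release 44, which held 99.3% of identifiers. Python 3.11.15, pandas 2.3.3, numpy 2.4.6 and matplotlib 3.10.9 were used.

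The comparison, the gene lists and the rules were chosen with earlier results of these data known. Named genes were called and had a mean of 7 or more in the higher group. They were the 10 largest rises and falls and the 2 largest rises and falls per list. Added to these were the 5 largest among long non-coding RNAs and the 5 largest interactions in each direction. The 10 largest and the interactions leave out 348 genes, from the cell cycle lists and the study's gene ontology results named above. Some genes that the rule names are not reported here. Other genes in the text are list members picked after their values were seen. Alternatives were an adjusted p of 0.01, no filter, a filter of 10 RPM, quantile normalization, scaling to nuclear reads without MALAT1, a pseudocount of 1 RPM, limma-voom on recovered reads, only the groups compared, the replicate number as a block, and leaving out each CCNB1-negative library. A block for both fractions of a treatment and leaving out genes overlapped by another row were added after seeing the data.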

Additional observations from a re-analysis of the deposited data

Results flagged for a closer look

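By the interaction term (limma, adjusted p under 0.05), CCNB1-negative and CCNB1-positive cells differed in their response for 31 of the named genes reported outside the cell cycle lists. Values are the log2 fold change in CCNB1-positive cells minus that in CCNB1-negative cells, so that a positive value means a smaller fall or a larger rise in CCNB1-positive cells. Among the genes with the largest falls the values were 3.51 for DDIAS, 3.38 for SHCBP1, 2.89 for RELT, 1.90 for CEACAM5 and 1.67 for CSPG4. Signalling and cell death genes were PMAIP1 at 3.30, OAS3 at 1.71 and ATF3 at 1.42. Lipid and sugar metabolism gave 2.55 for the row of FADS2, which holds FEN1, 1.61 for SQLE, 1.39 for LDHA and 1.00 for SCD.

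Stress, transport and lysosomal genes were TP53INP1 at 2.74, NUPR1 at 2.38, GLA at 1.74, SRXN1 at 1.14, AKR1B10 at 0.99, SLC7A11 at 0.96 and SLC7A5 at 0.95. Among non-coding genes the values were 3.22 for TYMSOS, 2.74 for TMPO-AS1, 1.34 for DLGAP1-AS2, 1.12 for CYTOR, whose row overlaps one with 110% of its reads, 1.11 for MIR4435-2HG and 0.95 for SNHG1. DEPDC1, a gene known from mitotic cells, stood at 3.26. A larger rise in CCNB1-negative cells was called for CALN1 at -2.59, ZNF573 at -2.43, PNPLA7 at -1.67, MPP7 at -1.57 and PCDHGB7 at -1.43. The cell cycle genes moved with these differences, and their part in them was not tested.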

How the results depend on the processing

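Both counts of called genes, 5438 higher and 5092 lower, kept within 1.5 times under each alternative but 1: with the filter of 10 RPM 3285 genes were higher and 1862 higher at least 2-fold, from 10119 genes tested. Without the filter 6578 were higher at least 2-fold, from 31381 genes tested. A gene without reads stands higher in a shallower library, as the treated ones were. The part of this in the counts without the filter was not tested. The median of all genes moved by 0.31 when scaled to nuclear reads without MALAT1, where 63.1% of called genes were higher, and by -0.13 under quantile normalization, where 47.4% were, against 51.6% as deposited. With other genes tested it moved by 0.43 without the filter, where 61.6% of called genes were higher. With the filter of 10 RPM it moved by -0.26, where 42.2% were. Leaving out untreated replicate 2 brought -0.029 for TGF-β and BMP genes and -0.017 for NF-κB genes. The count of interactions, 758, was 426 at an adjusted p of 0.01, 496 without the filter, 1062 under quantile normalization and 3850 with a block for the pair of fractions, and lay between 489 and 1806 when 1 library was left out. Leaving out a library gave 4742 to 5171 genes higher, 4520 to 5181 lower, 3479 to 3947 higher at least 2-fold and 2607 to 3367 lower at least 2-fold. Same-numbered treated and untreated CCNB1-negative libraries did not deviate together (correlation across genes -0.018), and with the replicate block 5625 genes were higher, 5265 lower and 883 differed between fractions. Under it GAS2L3 (adjusted p = 0.061, limma) was the single named gene to lose its call. List medians changed sign for Wnt genes (-0.15 as deposited, 0.17 scaled to nuclear reads, 0.34 without treated replicate 2 and 0.030 without untreated replicate 1), claudin and tight junction genes (-0.016 as deposited, 0.013 to 0.30 in 5 alternatives), colorectal epithelial markers (0.14 as deposited, -0.053 with the filter of 10 RPM and -0.12 without treated replicate 1), TGF-β and BMP genes (-0.030 under quantile normalization, and between -0.029 and 0.18 when 1 library was left out), NF-κB genes (between -0.017 and 0.61 when 1 library was left out), interferon-stimulated genes (-0.030 with the filter of 10 RPM and -0.018 under quantile normalization), lysosomal genes (0.015 scaled to nuclear reads), stem cell genes (-0.10 under quantile normalization), colorectal cancer RNAs (-0.053 with the filter of 10 RPM and -0.19 under quantile normalization) and non-epithelial markers (0.23 without overlapped genes). MT-CO2 was at -0.27 under quantile normalization. The causes were not tested. With 2 libraries per group, the spread of a single gene rests on that of all genes.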

Other observations

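Further families, picked by symbol prefix after the values were seen, fell or rose in CCNB1-negative cells as follows. Of 388 zinc finger genes of the ZNF series 215 rose and 62 fell, with a median log2 fold change of 0.64. Of 56 RAB GTPase genes, which direct vesicle traffic, 30 rose and 16 fell. Aminoacyl-tRNA synthetases, which charge tRNAs, were lower in 26 and higher in 3 of 35 (median -1.19), and translation initiation factors were lower in 42 and higher in 4 of 55 (median -1.10). Genes of respiratory complex I were lower in 42 and higher in 2 of 50 (median -0.91, or -0.50 after subtraction of the span quintile). Nucleoporin genes were lower in 18 and higher in 1 of 22 (median -1.29, or -1.28 after that subtraction). Of 8 tubulin genes 6 fell and 1 rose, and 4 of the 8 had a positive interaction. Solute carriers, with 81 of 220 higher (36.8%) and 87 lower (39.5%), were close to the shares of all genes tested (38.2% and 35.8%).

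TP53INP1 is a case of unlike starting levels in the fractions. Its log2 values were 9.26 and 8.85 in treated CCNB1-negative and 8.71 and 8.22 in treated CCNB1-positive libraries, while the untreated means were 4.70 and 1.36, so that the log2 fold changes were 4.36 and 7.10.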
